A study of Mus musculus with 6 samples.

Results

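Coagulation factors, their inhibitors, the fibrinolysis proteins and most complement components circulate in plasma and are made largely by hepatocytes. Chromatin accessibility around 43 genes of these systems was compared between mouse livers with and without Cre-driven loss of 2 nuclear receptor corepressor genes. A region belonged to one of them when its midpoint lay inside or nearest to that gene among all protein-coding genes, within 50 kb of the gene's span in RefSeq annotation of GRCm38.p6, the assembly behind mm10. The rule uses names and positions, not the measured values. Of the 43 genes, 42 had at least 1 region and 1, Serpind1 (heparin cofactor II), was nearest to none. Together the 42 genes held 283 of the 109853 regions obtained by merging the peaks of all 6 libraries.

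All 6 libraries were made by Omni-ATAC, an assay in which transposase Tn5 inserts adapters into open DNA, from liver nuclei of male mice sorted as positive for HNF4a, a transcription factor of hepatocytes. Every mouse, controls included, carried floxed alleles of both corepressor genes, of which one is Ncor1 (genotype given as F/F). The 3 control libraries came from mice given an adeno-associated virus (AAV) with eGFP, and the 3 dKO (double knockout) libraries from mice given AAV-Cre. Livers were taken on day 5 after the virus at zeitgeber time 10 (ZT10). The promoter that drives Cre, the age of the mice and whether each library is its own animal are unknown (not given in the sources used here). Thus p-values speak only to the spread between the libraries at hand, part of which may be technical. Where the deleted exons lie is likewise not given, so the peaks hold no check of the deletion.

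Clotting runs as a chain of serine proteases that end in thrombin, which turns fibrinogen into fibrin. Antithrombin, protein C, protein S and tissue factor pathway inhibitor restrain that chain, and plasmin dissolves the clot. Complement is a second protease chain, started by antibody, by lectins that bind sugars on microbes, or by C3 itself, and it ends in a membrane pore built from C5 to C9. Many of these genes are expressed in hepatocytes under factors such as HNF4A, the C/EBP family and, for acute phase proteins, the glucocorticoid receptor. ATAC-seq reports how open the DNA at and around them is, not how much of their RNA or protein is made.

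The DNA under the peaks at the starts of these genes is short, and the following stretches show what was measured there. Each is the part of a region called in all 6 libraries that lies before the annotated start of its gene, 5' to 3' on the gene's strand, in RefSeq promoter sequence of GRCm38.p6. Those of C3, C8b, F11 and F2 belong to regions that were lower in dKO libraries, and those of Fga and Mbl1 to regions that were not called. Capitals mark matches, on either strand, to AGGTCA (a nuclear receptor half-site), CAAAG (the core of an HNF4 half-site), TTGNNNAA (a C/EBP-like pattern) or TGTTCT (a glucocorticoid receptor half-site).
C3 (chr17:57228142-57228379, - strand): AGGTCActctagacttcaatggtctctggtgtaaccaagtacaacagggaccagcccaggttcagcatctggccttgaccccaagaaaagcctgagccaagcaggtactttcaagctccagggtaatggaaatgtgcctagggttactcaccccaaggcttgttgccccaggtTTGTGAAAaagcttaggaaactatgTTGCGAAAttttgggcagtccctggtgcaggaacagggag
C8b (chr4:104766128-104766316, + strand): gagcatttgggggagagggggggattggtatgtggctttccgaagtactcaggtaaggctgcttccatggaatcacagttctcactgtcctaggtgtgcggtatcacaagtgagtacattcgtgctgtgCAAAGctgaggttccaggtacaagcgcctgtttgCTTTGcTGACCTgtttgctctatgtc
F11 (chr8:45262056-45262251, - strand): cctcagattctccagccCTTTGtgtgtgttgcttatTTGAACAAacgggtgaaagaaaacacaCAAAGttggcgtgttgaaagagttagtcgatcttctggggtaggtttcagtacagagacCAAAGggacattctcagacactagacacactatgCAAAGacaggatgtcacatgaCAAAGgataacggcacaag
F2 (chr2:91636458-91636514, - strand): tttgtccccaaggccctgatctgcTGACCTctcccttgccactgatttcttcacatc
Fga (chr3:83026020-83026152, + strand): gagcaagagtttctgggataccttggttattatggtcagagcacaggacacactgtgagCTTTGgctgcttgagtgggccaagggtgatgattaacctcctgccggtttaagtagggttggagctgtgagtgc
Mbl1 (chr14:41151329-41151455, + strand): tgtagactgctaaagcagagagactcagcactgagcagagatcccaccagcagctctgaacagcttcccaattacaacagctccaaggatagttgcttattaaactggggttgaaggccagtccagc
The F11 stretch held 5 CAAAG matches and 1 TTGNNNAA match, the C8b stretch an AGGTCA and 2 CAAAG matches, and the C3 stretch an AGGTCA and 2 TTGNNNAA matches. The F2 stretch held an AGGTCA match and the Fga stretch a CAAAG match, and the Mbl1 stretch held none of the 4 patterns. The other stretches taken in this way are not printed. Of those in regions not called, F12 held 3 matches, Mbl2 and Serpinf2 2 each, C9 1, and C4bp, Klkb1, Itih1, Cpb2 and F9 0. Of those in lower regions, F13b held 1 and C6 0. Whether matches go with the calls was not tested.

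RefSeq windows from 250 bases before to 50 bases after the start were at hand for 35 of the 43 genes. AGGTCA occurred, on either strand, in the windows of 13 of the 35 genes (37.1%) and of 16.6% of the 17274 protein-coding genes with a window. CAAAG occurred in 27 of 35 (77.1%) against 55.4%, TTGNNNAA in 21 of 35 (60%) against 37.4%, and TGTTCT in 14 of 35 (40%) against 18.6%. The longer patterns CAAAGTCCA (an HNF4 site) and TTGCGCAA (a C/EBP palindrome) occurred in 0 of the 35 windows and in 0.527% and 0.249% of all windows. TTGCGCAA is also a match to TTGNNNAA, and CAAAGTCCA holds CAAAG. These are matches of letters in a window and do not show that a factor binds there.

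Before the comparison, 2 features of the libraries bear on every value below. The deposited lists held 83371, 72417 and 68316 peaks in controls 1 to 3 and 84614, 81667 and 71473 in dKO 1 to 3. Peaks had 1 narrow width in the lists of control 1, dKO 1 and dKO 2, and were wider in those of control 2, control 3 and dKO 3. The second feature is that dKO 3 stood nearest to the controls among the dKO libraries. Set against the mean of the 3 controls on the log2 scale, the median of the regions of coagulation and complement genes was -0.40 in dKO 1, -0.35 in dKO 2 and -0.24 in dKO 3, and between -0.04 and 0.03 in the controls. Over all regions the same medians were -0.07, -0.01 and 0.01 in the dKO libraries.

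A region was tested when all 6 lists held a peak in it. That left 118 regions at 40 of the genes, 41.7% of their 283 regions, against 51749 or 47.1% of all regions. Fgb and C8a had regions in some libraries only. Values are HOMER's normalized tag counts, given in normalized tags, and log2 fold changes are of the normalized tag count plus 1, dKO minus control, after median centring. Adjusted p-values are limma's, Benjamini-Hochberg over all 51749 regions, and a region called lower or higher has an adjusted p under 0.05. In pooled nuclei, fewer nuclei with a site open and less opening per nucleus cannot be told apart.

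The regions of coagulation and complement genes were lower in dKO libraries or not called. Of the 118 tested, 44 were lower (37.3%), at 29 genes, and 0 were higher. Of all 51749 tested regions 11.6% were lower and 8.19% higher. With no adjustment, at p under 0.05 by limma, 64 of the 118 were lower and 4 higher. The shares of all regions at that unadjusted threshold were not computed, so these counts have no like background. The normalizations that gave 1 or more higher regions after adjustment are given with the alternatives at the end. The median log2 fold change over the 118 regions was -0.32, against -0.02 over all, and 96 of them (81.4%) were below 0 against 52.5% of all. The lower regions ranged from -1.10 to -0.37 with a median of -0.57, close to the median of all lower regions, -0.58. Only the F9 and C8b regions with the largest differences lay below -1. Medians of lower regions cover only regions past the threshold, which itself bears on their size, so their likeness does not compare effect sizes. A larger share of the regions of these genes than of all regions was called lower. General hepatocyte markers moved with them: 12 of the 23 tested regions at 5 of 6 such genes were lower and 0 higher, and their part in the count was not tested. The 6 values of a region fell into groups that did not overlap, with dKO below control, in 57 of 118 regions (48.3%; 15.8% of all regions), and with dKO above control in 5 (4.24%; 12.6% of all).

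**Figure D1:**
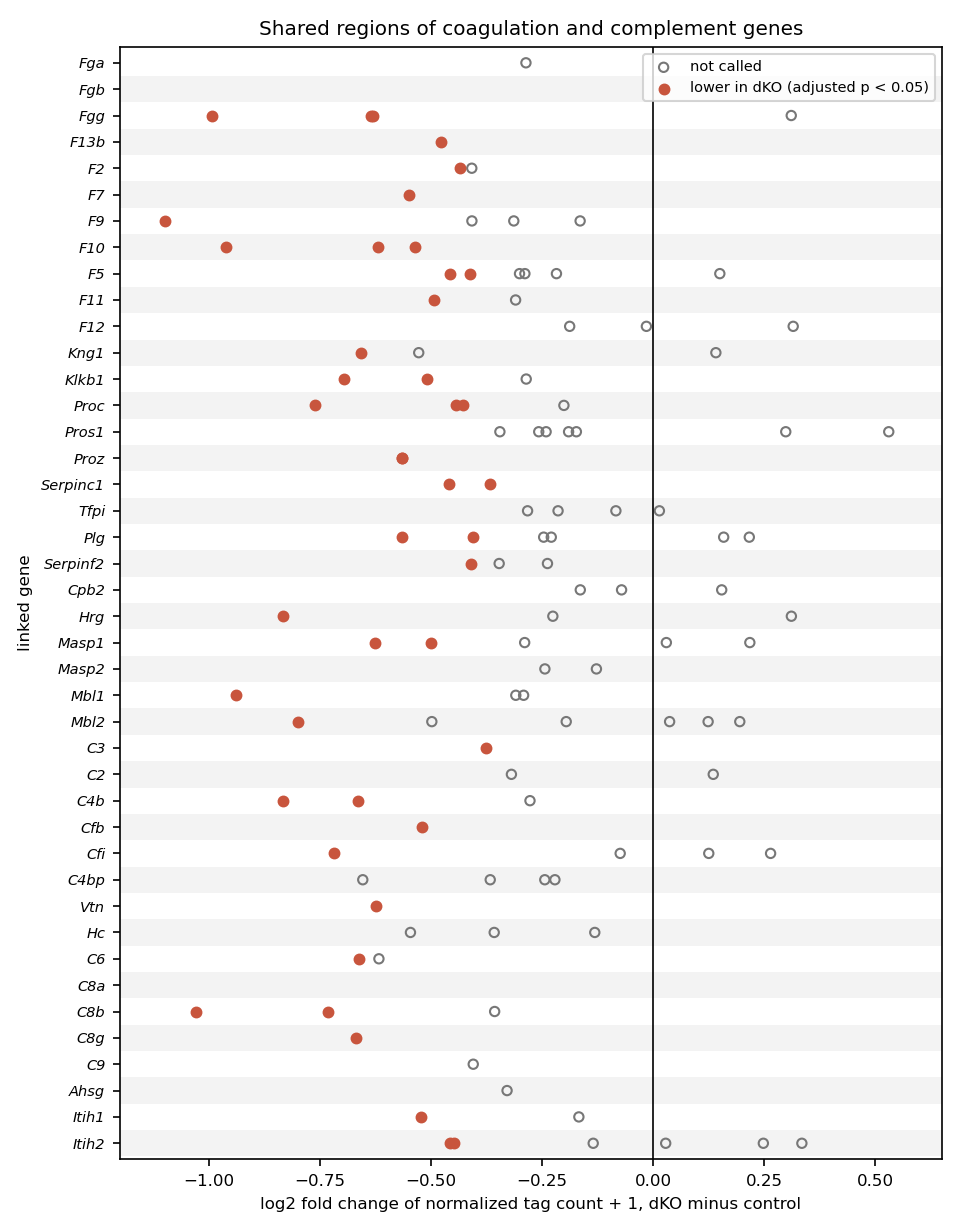
Log2 fold change (dKO minus control) of each region called in all 6 libraries, one line per gene; filled points are lower at an adjusted p under 0.05 and open points were not called. No filled point lies right of 0, and Fgb and C8a have no point because none of their regions was called in all 6 libraries.

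Signal strength moves with this count, and strong regions were called lower more often in the whole data set. The median of the 118 regions' mean signal was 25.9 normalized tags, against 15.9 for all regions. Where the mean signal was 20 normalized tags or more, 39 of 76 (51.3%) were lower and 0 higher, where 18.0% of all such regions were lower and 4.26% higher. Their median log2 fold change was -0.41 against -0.15. Below 10 normalized tags 0 of 14 regions of these genes were lower, where 3.73% of all were. From 10 to 20 it was 5 of 28 against 10.7%, from 20 to 40 it was 26 of 55 against 18.0%, and at 40 or more it was 13 of 21 against 17.9%. The share called lower in the 2 upper classes was therefore above that of all regions of like signal.

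**Figure D2:**
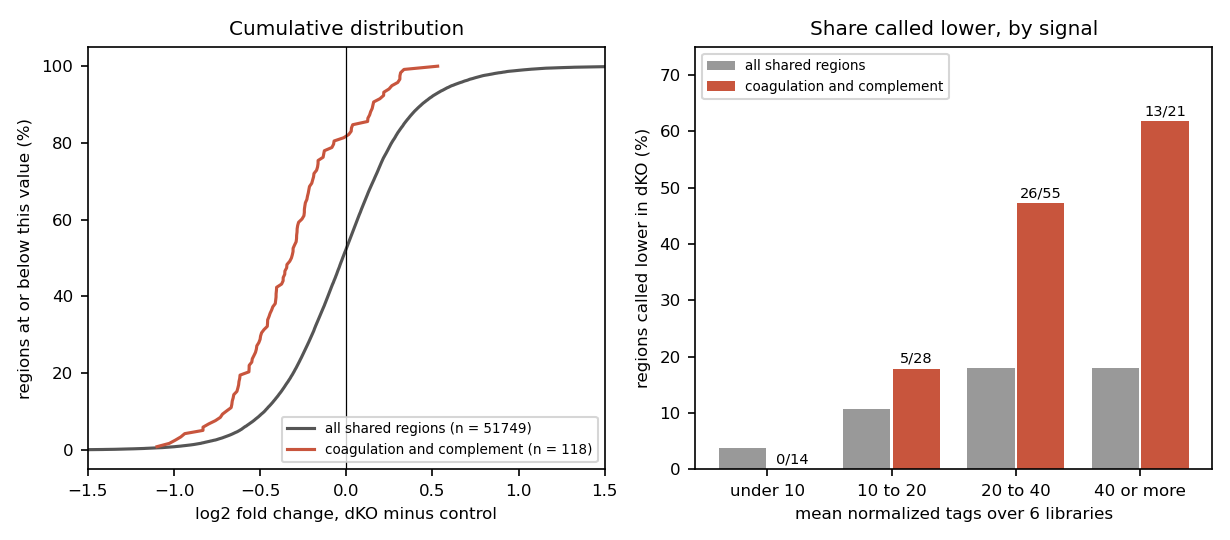
Left, the cumulative share of regions (%) at or below each log2 fold change for the 118 regions of coagulation and complement genes and for all 51749. Right, the share (%) called lower in dKO in 4 classes of mean normalized tags, with the number of regions above each bar of these genes. The curve of the 118 regions lies left of the other over most of its range, and the bars are farthest apart at 40 or more normalized tags, 13 of 21 against 17.9%.

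Leaving out dKO 3, the library nearest to the controls, gave 52 lower regions. Leaving out dKO 1 gave 17 and leaving out dKO 2 gave 14, and leaving out one control gave 31 to 39. The share lower among all regions moved too, to 15.7% without dKO 3, 3.98% without dKO 1 and 2.71% without dKO 2. Among the regions of these genes it was 44.1%, 14.4% and 11.9% in the same order. Without one control it was 26.3% to 33.1%, against 8.03% to 9.16% of all regions. Each of the 44 regions stayed below 0 in each of these fits, which reuse the libraries by which the 44 were chosen. The call held without each library in turn for 13 of the 44, namely 2 regions of Fgg, 2 of F10, and 1 each of F9, Kng1, Klkb1, Proc, Hrg, Mbl1, C4b, C8b and C8g. The other 31 lost it in at least 1 of these fits. In 43 of the 44 lower regions dKO 3 had the highest of the 3 dKO values (97.7%), as it did in 96.7% of all lower regions.

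Fibrinogen is built from the products of Fga, Fgb and Fgg, which lie side by side on chromosome 3, and factor XIII, whose B subunit is F13b, crosslinks fibrin. Of the 6 tested regions of these genes 4 were lower, 3 of them at Fgg, and the median log2 fold change was -0.55. Beside this and each later count by pathway stand 11.6% of all tested regions, and 18.0% of those with a mean of 20 or more. These counts are small, and whether pathways differ from each other or from that background was not tested. The lowest adjusted p was that of a region 4447 bp before the Fgg start, chr3:83003168-83003387, with 43.8, 39.4 and 47.7 normalized tags in controls 1 to 3 and 19.6, 17.6 and 24.7 in dKO 1 to 3. Its mean fell from 43.6 ± 4.15 to 20.6 ± 3.66 normalized tags (SD, n = 3) (adjusted p = 0.000657, log2 fold change -0.99 with SE 0.12), and every dKO library was below every control. The same held for the region at the Fgg start, chr3:83007698-83007893, which had 67.5, 52.2 and 79.2 in controls 1 to 3 and 37.8, 34.8 and 49 in dKO 1 to 3 (adjusted p = 0.00804, log2 fold change -0.63 with SE 0.14), and for one beyond the gene's far end, chr3:83020373-83020625, which had 41.8, 44.6 and 53.3 in controls 1 to 3 and 26.5, 24.3 and 34.8 in dKO 1 to 3 (adjusted p = 0.00439, log2 fold change -0.64 with SE 0.12). One more Fgg region, 12150 bp before the start, had values the other way round, 22.6, 22.4 and 25.2 normalized tags in controls 1 to 3 and 26.9, 25.9 and 31.4 in dKO 1 to 3. Its groups did not overlap, but it was not called (adjusted p = 0.0794, log2 fold change 0.31 with SE 0.12).

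At Fga, the fibrinogen alpha chain gene, the region 19 bp before the start (chr3:83026020-83026249), whose upstream stretch is printed above, was among the strongest of the 118. It had 78, 52.6 and 86.6 in controls 1 to 3 and 59.9, 50 and 57 in dKO 1 to 3. Control 2 lay between dKO 2 and dKO 3, the groups overlapped, and it was not called (adjusted p = 0.205, log2 fold change -0.29 with SE 0.15), though it was without control 2 (log2 fold change -0.50, adjusted p = 0.0226 by limma). The single tested F13b region, 268 bp before the start, had 22.4, 21.7 and 25.5 in controls 1 to 3 and 16.4, 13.1 and 17.7 in dKO 1 to 3 and was lower (adjusted p = 0.0223, log2 fold change -0.48 with SE 0.13). Fgb, the beta chain gene, had a peak at its start in control 1 (37.2), control 2 (39.2) and dKO 3 (32.7) and none in the other 3 lists. Since the lowest fold over local surroundings in the lists was 4, a site with no peak can still be open.

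The vitamin K-dependent procoagulants are prothrombin (F2) and factors VII, IX and X (F7, F9, F10), all secreted by hepatocytes as zymogens. Of their 10 tested regions 6 were lower and all 10 log2 fold changes were below 0, with a median of -0.49. F9, on chromosome X, held the largest difference of all 118 regions, inside the gene and 15213 bp after its start (chrX:60014584-60014771). It had 32.4, 21.5 and 34.3 normalized tags in controls 1 to 3 and 9.38, 10.8 and 18.4 in dKO 1 to 3. The mean fell from 29.4 ± 6.91 to 12.9 ± 4.85 normalized tags (SD, n = 3) (adjusted p = 0.00372, log2 fold change -1.10 with SE 0.20), and the highest dKO value stood below the lowest control value. The F9 start itself was not called, with 17.4, 21.1 and 21.2 in controls 1 to 3 and 13.6, 13.4 and 18.7 in dKO 1 to 3 and dKO 3 between the controls.

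Factor X activates prothrombin, and all 3 of its tested regions were lower. The one with the largest difference lay 889 bp beyond the far end of the gene (chr8:13057469-13057661). It had 83.8, 69.8 and 77.8 in controls 1 to 3 and 27.2, 30.8 and 62 in dKO 1 to 3. Its mean fell from 77.1 ± 7.02 to 40 ± 19.1 normalized tags (SD, n = 3) (adjusted p = 0.00517, log2 fold change -0.96 with SE 0.19), with dKO 3 far above the other dKO libraries and still below the controls. The F10 region 602 bp before the start had 52.9, 52.9 and 50 normalized tags in controls 1 to 3 and 28.6, 27.1 and 42.3 in dKO 1 to 3 (adjusted p = 0.00494, log2 fold change -0.62 with SE 0.12). The F10 region 463 bp after the start had 72.1, 75.1 and 69.2 in controls 1 to 3 and 40.8, 39.3 and 65.9 in dKO 1 to 3 (adjusted p = 0.0131, log2 fold change -0.54 with SE 0.13). F7, whose product starts the chain with tissue factor, had 1 tested region, 275 bp before an annotated start, with 58.3, 41.2 and 42.6 in controls 1 to 3 and 26.3, 28.5 and 37.1 in dKO 1 to 3 (adjusted p = 0.0194, log2 fold change -0.55 with SE 0.15).

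At F2, the prothrombin gene, 2 neighbouring regions flank the start. The one at the start (chr2:91636319-91636514) had 60.6, 59.2 and 53.8 normalized tags in controls 1 to 3 and 40.3, 32.3 and 51.8 in dKO 1 to 3 and was lower (adjusted p = 0.0198, log2 fold change -0.43 with SE 0.12). The one 637 bp before it had 44.3, 51.1 and 52 in controls 1 to 3 and 28.2, 33.8 and 45.4 in dKO 1 to 3 and was not called (adjusted p = 0.0527, log2 fold change -0.41 with SE 0.14), and dKO 3 lay above control 1. Both are of like size, and the call of the first was lost without dKO 1, dKO 2, control 1 or control 2.

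Factor V, the cofactor with which factor X acts, had 6 tested regions at F5, of which 2 were lower. The larger difference was 11099 bp into the gene, with 45.6, 43.3 and 36.6 in controls 1 to 3 and 30.3, 23.7 and 33.2 in dKO 1 to 3 (adjusted p = 0.0188, log2 fold change -0.46 with SE 0.12). The other lay 170 bp beyond the far end, with 26.2, 27 and 21.6 normalized tags in controls 1 to 3 and 17.3, 16.3 and 19.3 in dKO 1 to 3 (adjusted p = 0.0462, log2 fold change -0.41 with SE 0.14), and lost its call without any of 5 of the libraries, control 3 being the exception. The F5 start had 36.9, 45.4 and 54.7 in controls 1 to 3 and 33.2, 28.6 and 44.6 in dKO 1 to 3 and was not called (adjusted p = 0.145, log2 fold change -0.30 with SE 0.14).

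The contact and intrinsic genes are F11, F12, Kng1 (kininogen, the source of bradykinin) and Klkb1 (prekallikrein, which releases it). Of 11 tested regions 4 were lower. The Kng1 region 51 bp inside a gene end (chr16:23058174-23058369) had 36.4, 31.5 and 33.7 in controls 1 to 3 and 19.7, 16.6 and 25 in dKO 1 to 3, and its mean fell from 33.9 ± 2.45 to 20.4 ± 4.25 normalized tags (SD, n = 3) (adjusted p = 0.00399, log2 fold change -0.66 with SE 0.12). Klkb1 had 2 lower regions, one beyond its far end next to F11, with 35.6, 44.5 and 34.4 normalized tags in controls 1 to 3 and 20.4, 18.6 and 28.2 in dKO 1 to 3 (adjusted p = 0.00474, log2 fold change -0.69 with SE 0.14), and one 12999 bp after its start, with 57.6, 54.6 and 52 in controls 1 to 3 and 35.3, 29.6 and 46.6 in dKO 1 to 3 (adjusted p = 0.00921, log2 fold change -0.51 with SE 0.12). In all of these the dKO values lay below every control. The Klkb1 start had 27.7, 32.5 and 28 in controls 1 to 3 and 23.1, 18.4 and 28 in dKO 1 to 3, with dKO 3 equal to control 3, and was not called.

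The F11 region just before the start (chr8:45262043-45262251), the one with 5 CAAAG matches in its upstream stretch, had 24.1, 27.3 and 24.4 normalized tags in controls 1 to 3 and 17, 14.4 and 19.6 in dKO 1 to 3 and was lower (adjusted p = 0.0164, log2 fold change -0.49 with SE 0.13). F12 encodes factor XII, which sets off clotting on surfaces in the test tube. None of its 3 regions was called, and its start had 29.9, 24.3 and 25.5 in controls 1 to 3 and 29.4, 20.3 and 26.3 in dKO 1 to 3 (log2 fold change -0.02, SE 0.14), the values of the groups lying among each other. A region near the far end of F12 had 25.1, 26.5 and 22.4 in controls 1 to 3 and 33.7, 23.8 and 32.1 in dKO 1 to 3 (adjusted p = 0.0972, log2 fold change 0.32 with SE 0.13). It was not called here and was called higher under 4 of the alternatives.

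The inhibitors of clotting showed 7 lower regions among 19, at Proc, Serpinc1 and Proz. Proc encodes protein C, the protease that inactivates factors V and VIII. Of its 4 regions 3 were lower, and the largest difference was in a region 5960 bp from a gene end, with 32.4, 33 and 33.8 normalized tags in controls 1 to 3 and 16.1, 15.3 and 24.7 in dKO 1 to 3. Its mean fell from 33.1 ± 0.702 to 18.7 ± 5.21 normalized tags (SD, n = 3) (adjusted p = 0.00307, log2 fold change -0.76 with SE 0.14). Serpinc1, the antithrombin gene, had 2 tested regions, both inside the gene and both lower. The first had 38.2, 40.8 and 45.3 in controls 1 to 3 and 25.6, 25.8 and 35.1 in dKO 1 to 3 (adjusted p = 0.0178, log2 fold change -0.46 with SE 0.12) and the second 55.7, 61.3 and 53.6 in controls 1 to 3 and 38.1, 37.2 and 52 in dKO 1 to 3 (adjusted p = 0.0374, log2 fold change -0.37 with SE 0.11). No dKO library reached a control in either. The second was the smallest difference among the 44 and lost its call without control 1, control 2, dKO 1 or dKO 2.

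Proz, the gene of protein Z, a cofactor for inhibition of factor X, had 2 regions and both were lower. The one at its start (chr8:13060782-13061024) had 71.9, 61 and 68 normalized tags in controls 1 to 3 and 38.6, 37.4 and 54.7 in dKO 1 to 3 (adjusted p = 0.00654, log2 fold change -0.57 with SE 0.12), and the one near its far end had 40.3, 37 and 44.3 in controls 1 to 3 and 21.7, 24.4 and 32.6 in dKO 1 to 3 (adjusted p = 0.0109, log2 fold change -0.56 with SE 0.13). By contrast none of the 7 regions of Pros1 (protein S, the cofactor of protein C) and none of the 4 of Tfpi was called. The strongest Pros1 region, 6883 bp from a gene end, had 39, 48.5 and 46.8 in controls 1 to 3 and 30.6, 28 and 43.4 in dKO 1 to 3 (adjusted p = 0.0706, log2 fold change -0.34 with SE 0.13). The weak Pros1 region 27264 bp into the gene held the highest log2 fold change of the 118. It had 8.14, 4.64 and 5.61 normalized tags in controls 1 to 3 and 9.03, 8.73 and 8.26 in dKO 1 to 3, with groups that did not overlap (adjusted p = 0.0687, log2 fold change 0.53 with SE 0.19). Tfpi, made mainly by endothelial cells, had its strongest region 42962 bp from the gene, with 26.6, 24.1 and 18.1 in controls 1 to 3 and 19.6, 16.1 and 20.2 in dKO 1 to 3. Whether these genes differ from the other inhibitors was not tested.

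Among the genes of fibrinolysis and its control, 4 of 15 regions were lower, with a median of -0.23. Hrg encodes histidine-rich glycoprotein, a carrier that binds plasminogen and heparin. The region at its start (chr16:22951110-22951325) had 23, 21.3 and 19.6 in controls 1 to 3 and 10.6, 8.21 and 15.1 in dKO 1 to 3, and its mean fell from 21.3 ± 1.7 to 11.3 ± 3.5 normalized tags (SD, n = 3) (adjusted p = 0.00435, log2 fold change -0.83 with SE 0.16). Plg, the plasminogen gene, had 2 lower regions of 6. The one 67 bp outside a gene end (chr17:12378456-12378628) had 56.7, 55 and 65.5 normalized tags in controls 1 to 3 and 33.1, 31.5 and 51.8 in dKO 1 to 3 (adjusted p = 0.0106, log2 fold change -0.56 with SE 0.13), and the one 7016 bp inside had 41, 42.3 and 41 in controls 1 to 3 and 27.3, 24.3 and 39.4 in dKO 1 to 3 (adjusted p = 0.0332, log2 fold change -0.41 with SE 0.12).

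Serpinf2 encodes alpha-2-antiplasmin, the inhibitor of plasmin. Its region 492 bp after the start had 33, 29.4 and 33.1 in controls 1 to 3 and 23, 18.4 and 27.4 in dKO 1 to 3 and was lower (adjusted p = 0.0293, log2 fold change -0.41 with SE 0.12), and its start region had 42.6, 36.3 and 35.7 normalized tags in controls 1 to 3 and 25.1, 26.6 and 34.5 in dKO 1 to 3 and was not called (adjusted p = 0.0689, log2 fold change -0.35 with SE 0.13). Cpb2, whose product protects fibrin from plasmin, had 3 regions and no call. Its start had 50, 41.9 and 53 in controls 1 to 3 and 44.1, 34.9 and 44.7 in dKO 1 to 3 (adjusted p = 0.339, log2 fold change -0.16 with SE 0.12), and its groups overlapped.

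**Figure D3:**
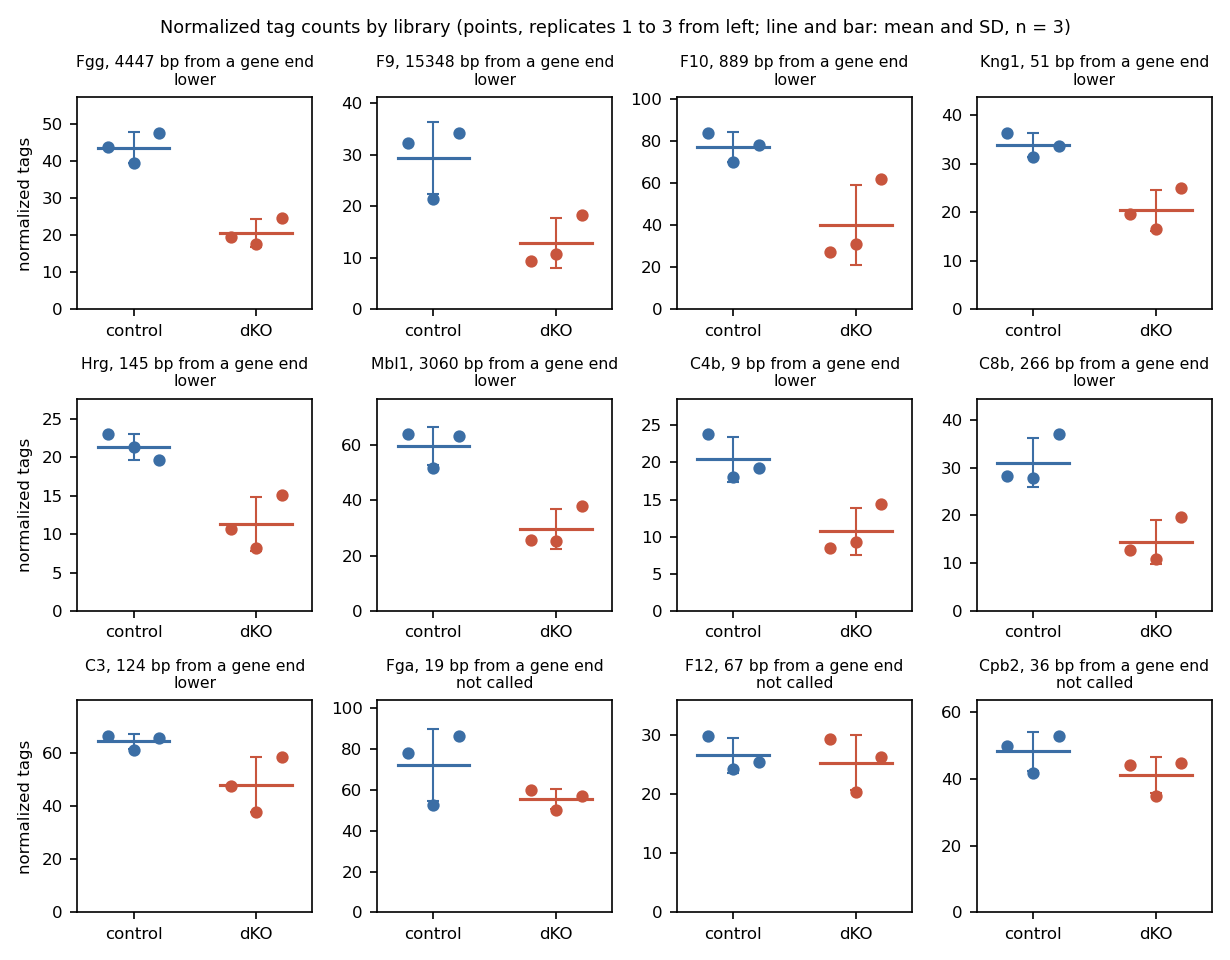
Normalized tag counts of 12 regions in each library (points), with the mean (line) and SD (bar, n = 3) of control and dKO; each vertical axis starts at 0. In the 9 lower regions shown every dKO point lies below every control point, and dKO 3 is the highest dKO point. Each of the 9 is the lower region with the largest change at its gene. Groups were apart in 40 of all 44 lower regions. In the Fga, F12 and Cpb2 start regions, which were not called, the groups overlap.

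The lectin pathway starts when mannose-binding lectins (Mbl1, Mbl2) meet sugars and activate the proteases MASP1 and MASP2. Of its 16 tested regions 4 were lower. The Mbl1 region 9388 bp after the start (chr14:41160743-41160945), inside the gene, had 63.9, 51.8 and 63.1 in controls 1 to 3 and 25.8, 25.3 and 38 in dKO 1 to 3. Its mean fell from 59.6 ± 6.77 to 29.7 ± 7.19 normalized tags (SD, n = 3) (adjusted p = 0.00106, log2 fold change -0.94 with SE 0.13). The Mbl1 start, with 57.6, 49.7 and 54 normalized tags in controls 1 to 3 and 42.8, 34.7 and 47.4 in dKO 1 to 3, showed no overlap between groups and was not called (adjusted p = 0.0573, log2 fold change -0.31 with SE 0.11). The lower Mbl2 region, 3242 bp before the start, had 17.6, 15.7 and 16.8 in controls 1 to 3 and 7.34, 5.23 and 16.8 in dKO 1 to 3 (adjusted p = 0.0334, log2 fold change -0.80 with SE 0.24). There dKO 3 equalled control 3, and the log2 fold change was -1.24 within the narrow-peak lists and -0.05 within the wide-peak lists.

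Masp1 had 2 lower regions of 5, both inside the gene. They had 27.9, 31.8 and 30.7 in controls 1 to 3 and 17.2, 13.3 and 26.7 in dKO 1 to 3 (adjusted p = 0.0138, log2 fold change -0.63 with SE 0.16) and 22.5, 24.2 and 23.2 normalized tags in controls 1 to 3 and 13.6, 13.6 and 19.9 in dKO 1 to 3 (adjusted p = 0.0234, log2 fold change -0.50 with SE 0.14), and the calls of both were lost without dKO 1 or dKO 2. The 2 Masp2 regions were not called, and the one at the start had 56, 44.1 and 53.5 in controls 1 to 3 and 40.7, 36.3 and 46.8 in dKO 1 to 3 (adjusted p = 0.151, log2 fold change -0.24 with SE 0.12).

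C3 is the protein at which the complement pathways meet, and C2, C4b and Cfb supply the parts of the enzymes that cleave it. Of 7 tested regions 4 were lower, with a median of -0.38. The strongest was that of C3, which covers the stretch printed above, with 66.3, 60.9 and 65.4 in controls 1 to 3 and 47.3, 37.8 and 58.5 in dKO 1 to 3. Its mean fell from 64.2 ± 2.89 to 47.9 ± 10.4 normalized tags (SD, n = 3) (adjusted p = 0.0285, log2 fold change -0.38 with SE 0.11). The groups were apart, but the call was lost without any 1 of the 3 controls, dKO 1 or dKO 2. C4b had lower regions at both ends of the gene, one with 23.8, 18.1 and 19.3 normalized tags in controls 1 to 3 and 8.51, 9.25 and 14.4 in dKO 1 to 3 (adjusted p = 0.00652, log2 fold change -0.83 with SE 0.17) and one with 41.4, 30.5 and 25.8 in controls 1 to 3 and 17.8, 15.7 and 24.2 in dKO 1 to 3 (adjusted p = 0.0137, log2 fold change -0.66 with SE 0.16). Mouse C4b has a closely related copy, C4a, and how reads that match both were placed is not given in the sources used here. Cfb, the factor B gene, had 40.1, 31.4 and 42.5 in controls 1 to 3 and 25.9, 20.1 and 29.5 in dKO 1 to 3 at 267 bp from a gene end and was lower (adjusted p = 0.0153, log2 fold change -0.52 with SE 0.13). The C2 region 13 bp from a gene end had 21.7, 20.6 and 21.9 normalized tags in controls 1 to 3 and 16.9, 12.3 and 20.4 in dKO 1 to 3 and was not called (adjusted p = 0.121, log2 fold change -0.32 with SE 0.14).

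Among the regulators, factor I (Cfi) cleaves C3b and C4b, C4bp is its cofactor, and vitronectin (Vtn) blocks pore assembly. Of 9 regions 2 were lower. The Cfi region 1480 bp inside the gene had 22.9, 22.6 and 35 in controls 1 to 3 and 13.8, 11.2 and 21.2 in dKO 1 to 3 (adjusted p = 0.0156, log2 fold change -0.72 with SE 0.18). The only region linked to Vtn, at its start, had 39, 36.9 and 45.5 in controls 1 to 3 and 22.6, 16.9 and 39.2 in dKO 1 to 3 (adjusted p = 0.0249, log2 fold change -0.62 with SE 0.18), and dKO 3 lay above controls 1 and 2. C4bp had 4 regions with groups apart, dKO below control, and no call. Its start had 30.2, 31.3 and 33.5 normalized tags in controls 1 to 3 and 27.6, 19.8 and 30 in dKO 1 to 3 (adjusted p = 0.169, log2 fold change -0.24 with SE 0.12), and its largest difference 16.8, 16.3 and 13 in controls 1 to 3 and 5.6, 10.2 and 12.2 in dKO 1 to 3 (adjusted p = 0.0574, log2 fold change -0.65 with SE 0.23).

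The terminal pathway genes encode the pore proteins, Hc being mouse C5, and had a median of -0.58, with all 10 log2 fold changes below 0. Of the 10 regions 4 were lower. C8b held the second largest difference of the 118, in a region 266 bp inside the far end of the gene (chr4:104804179-104804385). It had 28.2, 27.9 and 37 in controls 1 to 3 and 12.7, 10.8 and 19.6 in dKO 1 to 3, and its mean fell from 31 ± 5.17 to 14.4 ± 4.63 normalized tags (SD, n = 3) (adjusted p = 0.00184, log2 fold change -1.03 with SE 0.16). The C8b start region, with its upstream stretch above, was variable among controls, with 44.8, 28.9 and 68.9 normalized tags in controls 1 to 3 and 23.5, 21.3 and 32.7 in dKO 1 to 3, and dKO 3 lay above control 2 (adjusted p = 0.0327, log2 fold change -0.73 with SE 0.22). C8g had 44.9, 33.3 and 31.4 in controls 1 to 3 and 20.5, 19 and 25 in dKO 1 to 3 at 216 bp after the start (adjusted p = 0.007, log2 fold change -0.67 with SE 0.14), and C6 had 25.2, 27.8 and 43.7 in controls 1 to 3 and 19.2, 13.6 and 24.4 in dKO 1 to 3 at the start (adjusted p = 0.0227, log2 fold change -0.66 with SE 0.18).

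The remaining pore genes had no call. The C9 start had 26.9, 21.7 and 29.3 normalized tags in controls 1 to 3 and 19.4, 16.5 and 19.4 in dKO 1 to 3, groups apart, at an adjusted p just over the threshold (adjusted p = 0.0543, log2 fold change -0.40 with SE 0.14). The strongest Hc region had 26.9, 22.6 and 25.1 in controls 1 to 3 and 20.8, 15.5 and 19 in dKO 1 to 3 (adjusted p = 0.0756, log2 fold change -0.36 with SE 0.13). C8a, the neighbour of C8b, had 9 regions and none in all 6 lists, since control 3 held a peak in only 1 of them. In the region 1094 bp from its gene end (chr4:104816682-104816864) the values were 27.9 in control 1, 29.0 in control 2, 13.6 in dKO 1, 11.4 in dKO 2 and 23.6 in dKO 3, with no peak in control 3. In another, 8220 bp from the end, control 1 had 28.3 and control 2 had 26.4 and no other list held a peak.

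Ahsg (fetuin-A) and the inter-alpha-trypsin inhibitor heavy chains Itih1 and Itih2, which bind hyaluronan, are abundant plasma proteins. Of 9 regions 3 were lower. The Ahsg region, with the highest mean of the 118, had 80.3, 96.6 and 89.3 in controls 1 to 3 and 59, 63.2 and 81.7 in dKO 1 to 3 and was not called (adjusted p = 0.0651, log2 fold change -0.33 with SE 0.12), and dKO 3 lay above control 1. Itih1 was lower 1621 bp before its start, with 41.9, 36.3 and 34.9 normalized tags in controls 1 to 3 and 22.3, 19.7 and 34.4 in dKO 1 to 3 (adjusted p = 0.0208, log2 fold change -0.52 with SE 0.14), and not called at its start, with 36, 39.6 and 34.9 in controls 1 to 3 and 32.3, 24.9 and 37.9 in dKO 1 to 3 (adjusted p = 0.333, log2 fold change -0.17 with SE 0.12). Both lower Itih2 regions lay inside the gene. They had 36.6, 37 and 38 in controls 1 to 3 and 27.5, 22.5 and 27.3 in dKO 1 to 3 (adjusted p = 0.0126, log2 fold change -0.46 with SE 0.11) and 32.5, 40.4 and 39.9 normalized tags in controls 1 to 3 and 25.6, 22 and 31.1 in dKO 1 to 3 (adjusted p = 0.0205, log2 fold change -0.45 with SE 0.12).

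Position within the gene did not sort the lower regions to one place. Of 62 tested regions inside a gene 27 were lower, and of 56 outside 17 were, where 9.95% of all regions inside genes and 12.7% of linked regions outside were. Among the 35 genes with an annotated start in the promoter table, 28 had a tested region within 1 kb of it. Of these 34 regions 15 were lower, 0 higher and 19 not called, and their median mean signal was 34.6 normalized tags. Of all tested regions, wherever they lay, 11.6% were lower and 8.19% higher. The shares among all regions near a start were not computed, so the count at the starts has no like background.

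The clotting genes F7, F10 and Proz lie next to each other on chromosome 8, within 50.5 kb, and there every tested region was lower. Their 6 regions had log2 fold changes from -0.96 to -0.54. Within 30 kb on either side, other genes held 4 more tested regions. Of these 1 was lower, at Mcf2l, with a log2 fold change of -0.74, and the highest was -0.17. Of the other adjacent pairs and triples, Fgg, Fga and Fgb had 3 of 5 regions lower, F11 and Klkb1 3 of 5, C8b and C8a 2 of 3, Ahsg, Hrg and Kng1 2 of 7, and Cfb and C2 1 of 3. At Ahsg, Hrg and Kng1, neighbouring genes that are not on the list had 4 of 7 regions lower. Regions of 1 locus come from the same libraries and are not replicates of each other.

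**Figure D4:**
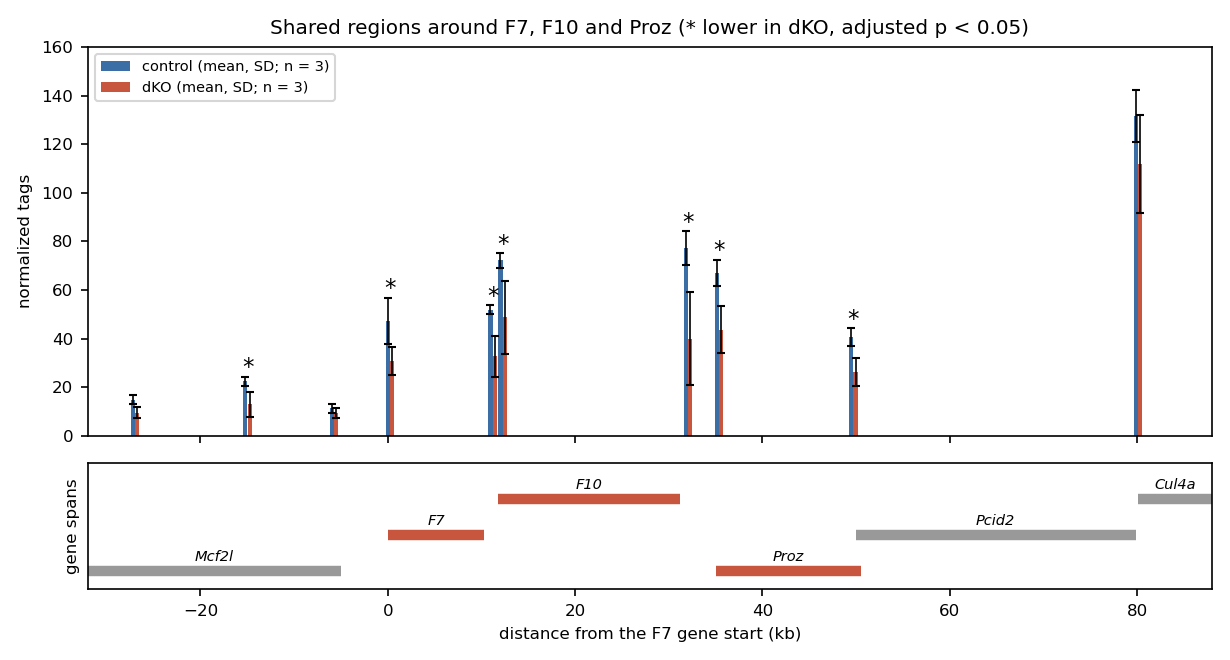
Mean normalized tags (bars, with SD, n = 3) of each region called in all 6 libraries around F7, F10 and Proz, by distance from the F7 gene start in kb, with gene spans below; asterisks mark regions lower at an adjusted p under 0.05. All 6 regions of F7, F10 and Proz carry an asterisk, and 1 of the 4 flanking regions does.

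Few peaks were confined to the lists of 1 group. Of the 283 regions 7 had a peak in 3 dKO and no control lists (2.47%; 1.57% of all regions), and 4 the reverse (1.41%; 1.34% of all). The strongest of the first kind lay 1384 bp beyond the far end of Fgg (chr3:83016352-83016528), with 32.1, 29.9 and 33.6 normalized tags in dKO 1 to 3. The others were 2 near the far end of F11, with 10.5, 8.68 and 12 in one and 16.9, 12.4 and 18.0 in the other, 2 beyond Kng1, 1 in F5 and 1 near Hc, where no value passed 17.3. The second F11 region (chr8:45239668-45239868) lay beside chr8:45239361-45239598, which had 28.2, 26.7 and 32.9 in controls 1 to 3 and 12.5 in dKO 2. The F5 region (chr1:164158471-164158643) lay beside chr1:164158687-164158912, which had 21.7, 26 and 30.3 in controls 1 to 3 and 9.62 in dKO 2. The strongest of the second kind lay inside Plg (chr17:12387912-12388085), with 22.4, 27.5 and 31.2 in controls 1 to 3. Near it, chr17:12388307-12388496 had 26.5 and 25.1 in controls 1 and 2 and 21.2, 22 and 27.4 in dKO 1 to 3. The regions of the second kind at F9, Pros1 and C6 had at most 7.79. Whether such neighbours are 1 open site with peaks placed differently in the lists was not tested. A peak at the far end of Fga had 30.4 in control 1, none in controls 2 and 3, and 48.8, 52.2 and 51.3 in dKO 1 to 3. These counts move with single lists: without control 1 the first kind held 13 regions and without dKO 3 it held 28, and the second kind held 10 without control 2, 8 without control 3 and 7 without dKO 2.

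Both groups held lists of both peak widths, though in unequal numbers, so the difference can be read within each width class. Within the narrow-peak lists (1 control, 2 dKO) the median over the 118 regions was -0.39, against -0.03 for all regions. Within the wide-peak lists (2 controls, 1 dKO) it was -0.22, against 0.01. All 44 lower regions were below 0 in both classes, with medians of -0.70 and -0.39, and 109 of the 118 had the same sign in both. The 44 were chosen by their values in these same 6 libraries, so their signs and medians are no separate support. The only dKO library of the wider class is dKO 3, so width and that library cannot be told apart as the source of the smaller values. No test was run within a class, where one group has 1 library.

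**Figure D5:**
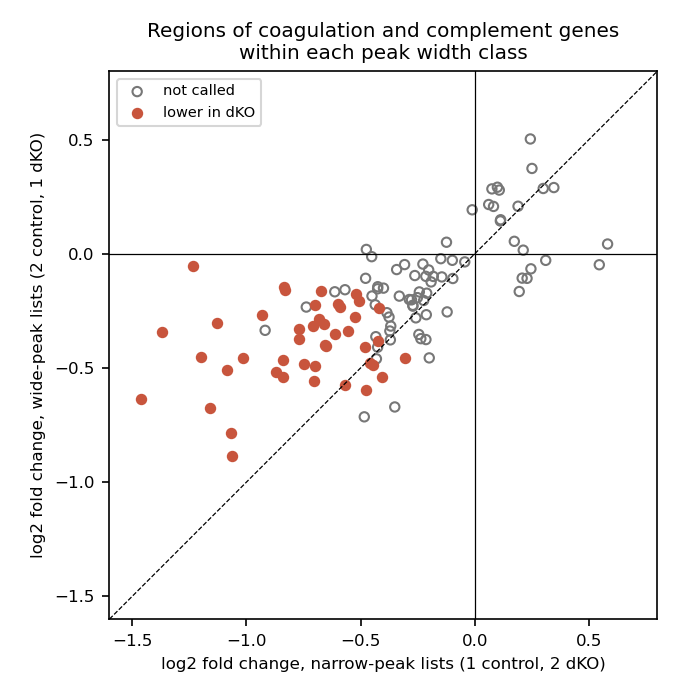
Log2 fold change of the 118 regions within the narrow-peak lists (horizontal) and within the wide-peak lists (vertical); the dashed line marks equal values. All 44 filled points, the lower regions, lie below 0 on both axes, and most lie above the dashed line, nearer to 0 in the wider lists. The filled points were chosen by their values in these same libraries.

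The wider set of coagulation and complement genes, many of them not chiefly made in hepatocytes, held called regions in both directions. Of 49 further genes listed for comparison 48 matched the annotation and 38 had tested regions. Of their 92 regions 18 were lower (11.6% of all tested regions were) and 10 higher (8.19% of all), with a median of -0.09. The share called higher was thus near that of all regions, and the share called lower was above that of all regions. Serping1, the C1 inhibitor gene, had 4 lower regions from -0.81 to -0.52. The first had 26.3, 25.7 and 32.2 normalized tags in controls 1 to 3 and 15.1, 13.1 and 16.3 in dKO 1 to 3. Vkorc1, which recycles vitamin K (-0.53), Serpina10, the inhibitor that works with protein Z (-0.58), Serpina5, a protein C inhibitor (-0.74), Clu, clusterin (-0.58), Itih3 (-0.67) and F3, tissue factor (-0.43), each had a lower region too. All 3 of the called regions of Vwf, also one of the endothelial markers below, were higher, the largest by 1.07, with 3.30, 6.17 and 3.98 in controls 1 to 3 and 13.9, 7.37 and 9.05 in dKO 1 to 3. Plau, urokinase (0.48), and Ggcx, the vitamin K-dependent carboxylase (0.51), had a higher region as well. C1rb, which has a close paralogue, had one region of each kind.

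Markers of other liver cells were measured in the same libraries. Of 5 Kupffer cell and macrophage genes no region was called in all 6 lists, and the lists held 0 to 2 peaks in all, with summed signals from 0 to 9.90 normalized tags. Stellate cell genes had 7 tested regions and no call, lymphocyte genes 3 and no call, and cholangiocyte genes 8 with 1 higher. A region in all 6 lists was found at 4 of 5 stellate cell genes, 3 of 4 cholangiocyte genes and 2 of 3 lymphocyte genes. The exceptions were Dcn, Krt19 and Cd79a. All 7 endothelial marker genes had tested regions, 33 in all, of which 4 were higher and 4 lower. Their summed signal ran from 507 to 625 in the controls and from 448 to 616 in the dKO libraries. Of 6 hepatocyte markers 5 (Apoa1 the exception) had 23 tested regions, of which 12 were lower and 0 higher, with a median of -0.54 and summed signals of 982 to 1643 in controls and 882 to 997 in dKO libraries. Such a sum adds every peak of a list, and these genes had 54, 36 and 31 peaks in controls 1 to 3 and 42, 44 and 31 in dKO 1 to 3. With 31 peaks each, control 3 summed to 982 and dKO 3 to 992.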

How the data were processed

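The 3 control and 3 dKO ATAC-seq libraries were each represented by 1 deposited HOMER peak list on mm10. Per the submitters' processing notes, the authors used Trim Galore 0.6.4, Picard, SAMtools 1.10 and HOMER 4.11. The aligner, the filters, any shift of cut sites, the peak calling options and the scaling depth are unknown (not given in the sources used here). Per the file headers, each list gives a normalized tag count, a signal scaled to library depth, a peak score, and a fold over local surroundings, a ratio. The deposited score was used to filter peaks in 1 alternative only, and its minimum in the lists was 35.5. The deposited ratio, with a minimum of 4, was not tested. The lowest values lay on a regular step (100% of unique values under 6, within 0.0052, in each library). If a step is 1 tag, depths differed by up to 1.27 times and median peaks held 209 to 251 tags. Larger values are rounded to few digits, so whole counts were not recovered for a count model.

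Autosomal and X-linked peaks that shared 1 bp were merged, and a region's value in a library was its highest peak signal. Regions with a peak in all 6 libraries were tested on log2(value + 1), median-centred, with limma 3.58.1 (trend on) in R 4.3.3, 2-sided, with Benjamini-Hochberg adjustment over 51749 regions. A pseudocount of 1 understates the change of weak regions. The code was tested on simulated data. Because a region needs a peak in all 6 lists, sites lost or gained in a group are only in the presence counts.

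Named regions are, for each gene, the one past the threshold with the largest change, or with none the strongest, and the one nearest the start within 1 kb; other regions of the tables were named after their values were seen. The genes and comparison lists were chosen with earlier results of these data known. Alternatives were the pseudocount, scaling, filters, merging, gene link, covariates, replicate block, variance trend and leaving out each library. A further promoter pattern that had been planned is not reported here.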

Additional observations from a re-analysis of the deposited data

How the results depend on the processing

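Every one of the 44 lower regions stayed below 0 in each alternative fit that tested it, and no named region with a call in any fit changed sign. The 44 were chosen on the same data, so their sign was largely set by the choice. The count of lower regions moved more. It was 27 under quantile normalization and 27 under cyclic loess, 23 of 76 regions when only means of at least 20 normalized tags were fitted, 28 of 84 with only the peaks above the median score of each list, and 14 to 52 when leaving out 1 library (14 without dKO 2, 17 without dKO 1). Other settings gave 36 to 55. Under quantile normalization, cyclic loess and means of at least 20, the shares lower were 22.9%, 22.9% and 30.3%. Among all regions tested they were 8.86%, 8.91% and 9.49%. Leaving out 1 library, 2.71% to 15.7% of all regions were lower. The count of higher regions, 0, became 2 under quantile normalization, 2 under cyclic loess, 2 for means of at least 20, 3 with above-median scores, 1 for regions called in at least 3 libraries, 1 with the replicate block, and 0 to 2 when leaving out 1 library. These were Fgg (12150 bp before the start) and F12 (near its far end) in the first 4 settings, Itih2 with above-median scores and without dKO 3, Pros1 with the block and without control 1 or dKO 3, and Fga (far end) with at least 3 libraries. In the first 4 settings 8.64%, 8.35%, 9.54% and 9.79% of all regions tested were higher. With at least 3 libraries and with the block it was 5.80% and 10.5%. Over all regions, lower calls made up 58.6% of calls, 50.6% under quantile normalization, 64.5% with no centring and 47.3% with above-median scores, where 8.79% of regions were lower against 33.3% of the regions of these genes.

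Regions that had peaks in the dKO lists alone (all 3) numbered 7, 3 with above-median scores and 7 to 28 leaving out 1 library; the reverse numbered 4, and 4 to 10 leaving out 1 library. Deviations of control and dKO libraries with equal replicate numbers correlated at 0.15, -0.03 and 0.23. With unequal numbers the correlations ran from -0.23 to 0.16. Peak widths also differed between the libraries, so these values do not settle whether equal numbers mark pairs. With the number as a replicate block 52 regions were lower, 44 of them the same, and 1 was higher.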
